A study of Drosophila melanogaster with 3 samples.

Results

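Myc peaks on chromosome arm 3R of Drosophila melanogaster were mapped in S2-DRSC cells, a male cell line derived from late embryos. All peaks listed on the sequence named 3R were taken, and the 6 on the separate heterochromatin scaffold 3RHet were left out. This gave 285 of the 1355 peaks in the list, or 21.0%. The list came from chromatin immunoprecipitation followed by sequencing (ChIP-seq), with 2 libraries precipitated by a rabbit polyclonal antibody against fly Myc and 1 library of input DNA from the same line. No treatment or genotype separates these libraries, and cells were fixed with formaldehyde before chromatin was sheared. The list is a single one for the series and carries no value per library, so the replicate spread and the depth of each library are unknown here.

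Myc belongs to the basic helix-loop-helix transcription factors and is encoded in the fly by dm (diminutive). It binds DNA as a dimer with Max, classically at E-box sequences, and in flies it is best known for driving cell growth, ribosome production and competition between cells. A peak is a stretch of the genome where the authors' peak caller found more reads from the precipitated DNA than it required. Each peak has a start, an end and a score, which is the authors' own value. The statistic and log base of the score are not stated, so it is used only to rank and describe peaks. Positions are in FlyBase release 5, in which 3R is numbered from its centromere-proximal end towards the telomere. No gene annotation or genome of that release was used, so peaks are named by position.

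The first question was how densely Myc peaks lay on 3R compared with the other major arms. The 285 peaks on 3R ran from base 32394 to base 27903593 and lay at 10.2 per Mb of the distance between first and last peak (95% exact Poisson interval 9.07 to 11.5). The density was 7.81 per Mb on 2L (6.69 to 9.06), 10.9 on 2R (9.53 to 12.5), 7.68 on 3L (6.62 to 8.87) and 5.10 on X (4.19 to 6.14). Peaks on 3R were denser than on X by 2.01 times (95% interval 1.61 to 2.52, two-sided exact binomial test adjusted over 4 arms, p = 3.67e-10). By the same exact test they were denser than on 3L by 1.33 times (1.10 to 1.61, adjusted p = 0.00462) and than on 2L by 1.31 times (1.08 to 1.59, adjusted p = 0.00728). The ratio to 2R was 0.936 (0.783 to 1.12, adjusted exact p = 0.473), so the interval holds both lower and slightly higher densities. Intervals and tests cover counting error only and count each peak as independent, although peaks lie in groups. Among peaks scoring at or above the list median the ratio to 2L was 0.938 (adjusted exact p = 0.665), that to 3L 1.18 (0.600) and that to 2R 1.12 (0.655). With each group of neighbouring peaks counted once the ratio to 3L was 1.23 (adjusted exact p = 0.118) and that to 2L 1.69 (1.91e-04). Without the longest group of each arm the ratio to 2L was 1.60 (adjusted exact p = 1.49e-05). Male cells carry X at a lower dose than autosomes, and copy number and binding cannot be told apart in these counts.

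The peaks of 3R were concentrated towards the telomere. The distal 13.9 Mb of the distance covered held 209 peaks, or 15.0 per Mb (13.0 to 17.2), and the proximal 13.9 Mb held 76, or 5.45 per Mb (4.30 to 6.83). The distal share was 73.3% (95% Clopper-Pearson interval 67.8 to 78.4%, two-sided exact binomial test against equal shares, p = 1.61e-15). The imbalance was also present with each group of neighbouring peaks counted once (68.2% distal, exact p = 2.26e-06), with the same reservation that peaks are not independent. On the other arms, divided in the same way, the telomeric share was 43.9% on 2L (36.4 to 51.7%), 27.4% on 2R (21.6 to 33.7%), 65.2% on 3L (57.9 to 72.0%) and 66.7% on X (57.1 to 75.3%). The shares of 3R and 2R, the arms with the most peaks, thus lay on opposite sides of an even division. On 2L, 39 of the 97 peaks in the centromeric part formed a single group of neighbouring peaks in 122929 bp. The share of 2L was not recomputed without that group.

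**Figure D1:**
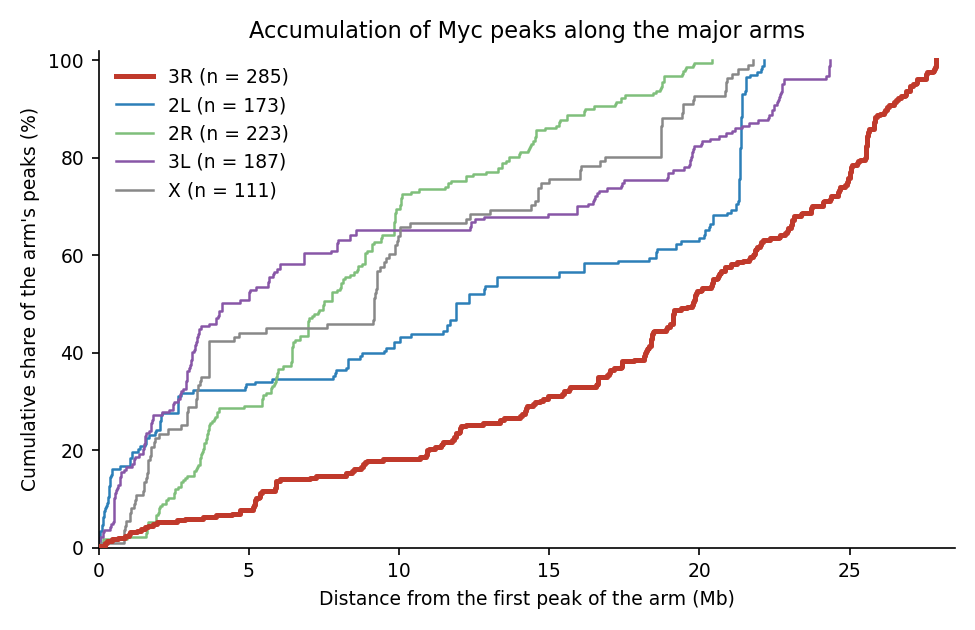
Cumulative share of each arm's Myc peaks (percent) against the distance from the arm's first peak (Mb), 1 line per major arm, with 3R as the thick line. The 3R line stays lowest over most of the distance and climbs late, since 209 of 285 peaks lie in the distal 13.9 Mb. The lines for 2R and 3R start at the centromere-proximal end and those for 2L, 3L and X at the telomeric end.

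Counted in 1 Mb bins, no full bin of 3R was without a peak. The 27 full bins held 9.89 ± 7.88 peaks on average (SD, n = 27 bins), with a median of 9 and a range of 1 to 37. Of these bins, 7 held 3 or fewer peaks, all of them below 14 Mb, and the bins from 6 to 7 Mb and from 9 to 10 Mb held 1 each. All 9 full bins from 18 Mb onwards held 10 or more peaks, against 3 of the 18 bins below 18 Mb. The fullest bin, from 25 to 26 Mb, held 37 peaks, of which 16 formed a single group described below and 21 lay outside it. It was followed by the bins from 19 to 20 Mb with 21 peaks and from 18 to 19 Mb with 19. In the proximal part of the arm the fullest bin, from 5 to 6 Mb, held 17.

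Unevenness along 3R was of the order seen on other arms. The ratio of variance to mean of the bin counts, which is near 1 for independent peaks at an even rate, was 6.27 on 3R, against 17.4 for 2L, 4.78 for 2R, 9.59 for 3L and 6.40 for X. Without the longest group of peaks the ratio on 3R was 4.10. The ratios of the other arms were not recomputed in this way, and that of 2L includes a group of 39 peaks. Empty full bins numbered 0 on 3R, against 2 for 2L, 0 for 2R, 7 for 3L and 4 for X.

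The longest stretches of 3R without a peak lay below 18 Mb. The longest ran from base 9510475 to base 10729709, or 1219235 bp. The next were 1006363 bp from base 6062517, 994041 bp from base 7257566 and 887674 bp from base 15716413. In all, 11 stretches longer than 500000 bp made up 29.1% of the distance covered, and all 11 began before 18 Mb. From 18 Mb onwards the longest stretch without a peak was 405307 bp. Sequence to which reads cannot be mapped could not be marked, and its part in these stretches was not tested.

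Widths and scores of the peaks on 3R lay close to those on 2R and 3L. The widths had a median of 333 bp (95% order-statistic interval 314 to 356 bp), quartiles of 255 and 483 bp, and a range of 201 to 1512 bp. Of the 285 peaks, 9 had the shortest width in the list, 201 bp, and 7 were 1000 bp or wider. The median width was 386 bp on 2L (354 to 435), 345 bp on 2R (312 to 379), 327 bp on 3L (297 to 364) and 384 bp on X (339 to 434), and the interval of 3R overlapped all 4. Peaks of 3R covered 115851 bp, or 4157 bp per Mb, against 3597 bp for 2L, 4470 for 2R, 3159 for 3L and 2443 for X.

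Scores on 3R had a median of 11.52 (11.13 to 12.32), quartiles of 9.26 and 15.29, and a range of 6.48 to 43.83. The median was 13.40 on 2L (12.55 to 14.59), 11.13 on 2R (10.38 to 11.59), 11.98 on 3L (11.13 to 12.81) and 12.32 on X (10.76 to 13.39). The interval of 3R overlapped those of 2R, 3L and X and lay below that of 2L, which includes a long run of 39 peaks. No test was made of these medians, since peaks of 1 list are not replicates. On 3R 180 peaks, or 63.2%, scored below the median of the whole list, 13.15, against 69.1% for 2R and 58.9% of the 694 peaks on the 4 other major arms together. A score of 20 or more was reached by 31 peaks on 3R, or 10.9% (7.51 to 15.1%), against 20.2% on 2L (14.5 to 27.0%), 9.87% on 2R (6.29 to 14.6%), 11.2% on 3L (7.09 to 16.7%) and 16.2% on X (9.90 to 24.4%). Of the 100 highest scores in the list of 1355, 3R held 3 among its 285 peaks. The counts were 5 among 173 peaks for 2L, 5 among 223 for 2R, 9 among 187 for 3L and 5 among 111 for X. U and Uextra together held 62 among 334.

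The distal and proximal parts differed in number of peaks much more than in the height or width of the peaks. The median score was 11.75 in the distal 13.9 Mb (11.13 to 12.58) and 11.52 in the proximal 13.9 Mb (10.40 to 12.32). The median width was 336 bp in the distal part (317 to 379) and 313 bp in the proximal part (287 to 366). Both pairs of intervals overlapped.

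Wider peaks scored higher on 3R, as they did on each other arm. With 3R peaks ranked by width into 4 sets, the narrowest, 201 to 255 bp wide, had a median score of 9.56 (8.76 to 10.4, n = 72), and the widest, 484 to 1512 bp, had 15.8 (13.6 to 18.5, n = 71). Spearman's rho between width and score was 0.564 across the 285 peaks of 3R, against 0.567 for 2L, 0.612 for 2R, 0.646 for 3L and 0.694 for X. These correlations are across peaks, which share libraries and the caller's threshold, and are given as a description.

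**Figure D2:**
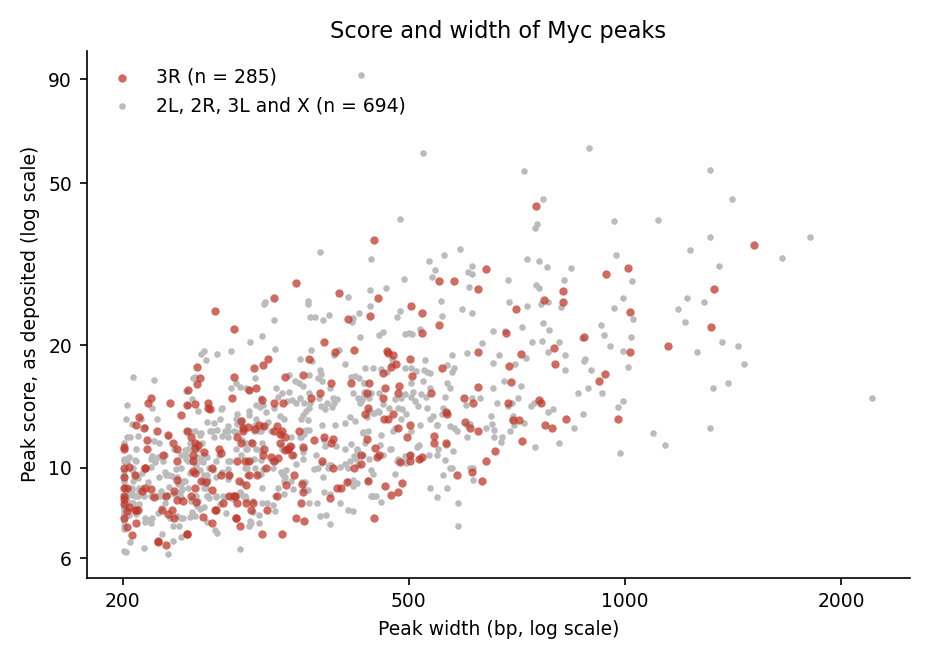
Score as deposited against width in bp, both on log scales, for the 285 peaks of 3R (red) and the 694 of 2L, 2R, 3L and X (grey), 1 point a peak. The 3R points follow the same rising band as the grey ones and end at a score of 43.83, below the highest grey points.

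The highest peak of 3R spanned bases 27283623 to 27284375, was 753 bp wide and scored 43.83. It ranked 39th in the list, and the highest peaks of the other arms scored 45.66 on 2L (bases 21513198 to 21513967), 92.21 on 2R (943247 to 943675), 61.0 on 3L (24457228 to 24458119) and 53.39 on X (14937689 to 14938412). The top peak of 3R had a high neighbour 4809 bp further on, at bases 27288456 to 27289160 (24.49). The second highest peak of the arm, at bases 25624704 to 25625151 and scoring 36.33, lay inside the longest group of peaks. The third, at bases 4724802 to 4726313 and scoring 35.20, was also the widest of the arm at 1512 bp and lay in the sparse proximal part.

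The 20 highest peaks of 3R scored 24.20 to 43.83 and had a median width of 633 bp. Of these, 14 lay in the distal 13.9 Mb and 6 in the proximal 13.9 Mb, where 73.3% and 26.7% of all 285 peaks lay. By the distance to their neighbours, 7 were alone, 7 belonged to a pair and 6 to a longer group. Of all 285 peaks 36.5% were alone, 30.2% in pairs and 33.3% in longer groups. The peaks from rank 4 to rank 6 by score were at bases 19159612 to 19160620 (score 30.95), 18236531 to 18237171 (30.82) and 25583093 to 25584032 (29.94). Peaks at bases 1300165 to 1300742 and 27046518 to 27047068 tied at 28.78.

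Further peaks of the top 20 that stood alone were those at bases 3522228 to 3522576 (28.36), 26163881 to 26164505 (27.52) and 474892 to 475712 (27.15). The peaks at bases 21931888 to 21932340 (26.06), 20411931 to 20412749 (25.57) and 14299764 to 14300267 (25) also stood alone. The isolated peak at base 3522228 had its nearest neighbours 602223 and 423762 bp away. The remaining members were at bases 22692243 to 22693571 (27.46), 25040668 to 25041438 (25.87) and 26505365 to 26505689 (26.10), and the peaks at bases 11444562 to 11444830 (24.20) and 11451520 to 11451919 (26.86), which form a pair.

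Of the 10 widest peaks, 4 were also among the 20 highest and 9 lay in the distal part. Those not yet named were at bases 24948112 to 24949428 (1317 bp, score 22.15), 24714441 to 24715589 (1149 bp, 19.92), 21831479 to 21832493 (1015 bp, 19.28) and 25871140 to 25872154 (1015 bp, 24.19). The 2 others, at bases 23407038 to 23408016 (979 bp, 13.15) and 24161284 to 24162222 (939 bp, 17.04), were wide with only moderate scores.

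The next question was whether peaks of 3R lay in groups. The distance between neighbouring midpoints had a median of 33229 bp (21489 to 43104), with quartiles of 6941 and 130307 bp and a range of 336 to 1219602 bp. Of the 284 distances, 27 were below 1000 bp, 35 were between 1000 and 5000 bp and 53 between 5000 and 15000 bp. The median was 7836 bp on 2L (6168 to 19004), 26658 bp on 2R (18213 to 33326), 28345 bp on 3L (21498 to 42203) and 31831 bp on X (21785 to 59256). The interval of 3R overlapped those of 2R, 3L and X and lay above that of 2L. The distances of 2L include those within its group of 39 peaks, and its median was not recomputed without that group. Of the 27 closest pairs, 23 lay in the distal part, which held 73.3% of all 3R peaks. In 13 of the 27 the peak nearer the centromere scored higher.

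Peaks were joined into a run where neighbouring midpoints lay no more than 15000 bp apart. On 3R this left 104 single peaks, 43 pairs, 13 runs of 3 peaks, 7 runs of 4, 2 runs of 6 and 1 run of 16. Runs of 3 or more held 95 peaks, or 33.3% (27.9 to 39.1%), against 51.4% on 2L (43.7 to 59.1%), 30.5% on 2R (24.5 to 37.0%), 23.5% on 3L (17.6 to 30.3%) and 29.7% on X (21.4 to 39.1%). On 2L a single run held 39 of the 89 peaks in such runs, and the share of 2L was not recomputed without it. Of the runs on 3R only 3 held 5 or more peaks, against 5 for 2L, 5 for 2R, 3 for 3L and 3 for X. The share of 3R moves with the joining distance, from 12.6% at 5000 bp to 46.3% at 30000 bp, and was 20.4% with peaks within 1000 bp merged. Among peaks scoring at or above the list median it was 9.52%.

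Scores in runs overlapped those of solitary peaks. On 3R the median score was 11.1 in runs of 3 or more (10.4 to 11.9), 12.6 in pairs (11.5 to 14.0) and 11.5 for single peaks (10.8 to 12.3). Median widths were 356 bp in runs (325 to 439), 327 bp in pairs (307 to 395) and 306 bp for single peaks (287 to 349). All of these intervals overlapped within each measure.

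The longest run of 3R held 16 peaks between bases 25548926 and 25632940, a stretch of 84015 bp. Its nearest neighbours lay 167082 bp before and 50614 bp after it. The median score was 14.6 and the median width 419 bp. Peaks covered 8.75% of the stretch.

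The first peak of the run, at bases 25548926 to 25549176, scored 9.85. The peaks at bases 25562664 to 25562904 and 25563511 to 25563746 scored 13.51 and 8.76. The peak at bases 25573680 to 25574037 scored 7.39, the lowest of the run, and its neighbour at bases 25574976 to 25575442 scored 19.37.

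The middle of the run held its widest peaks. The widest, 940 bp at bases 25583093 to 25584032, scored 29.94. It was followed by peaks at bases 25590383 to 25590625 (score 8.27) and 25591009 to 25591572 (13.70). The peaks at bases 25597339 to 25597963 and 25598411 to 25599287 scored 15.79 and 20.96. Peaks at bases 25607797 to 25608096 (15.52) and 25617788 to 25618176 (8.42) led to the last part of the run.

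The last part of the run held its highest peak, at bases 25624704 to 25625151 (36.33). It was only 448 bp wide, and its next neighbour, at bases 25625514 to 25625772, scored 7.57. The run closed with peaks at bases 25628607 to 25629074 (19.16) and 25632252 to 25632940 (17.80). High and low peaks thus lay side by side along the run.

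**Figure D3:**
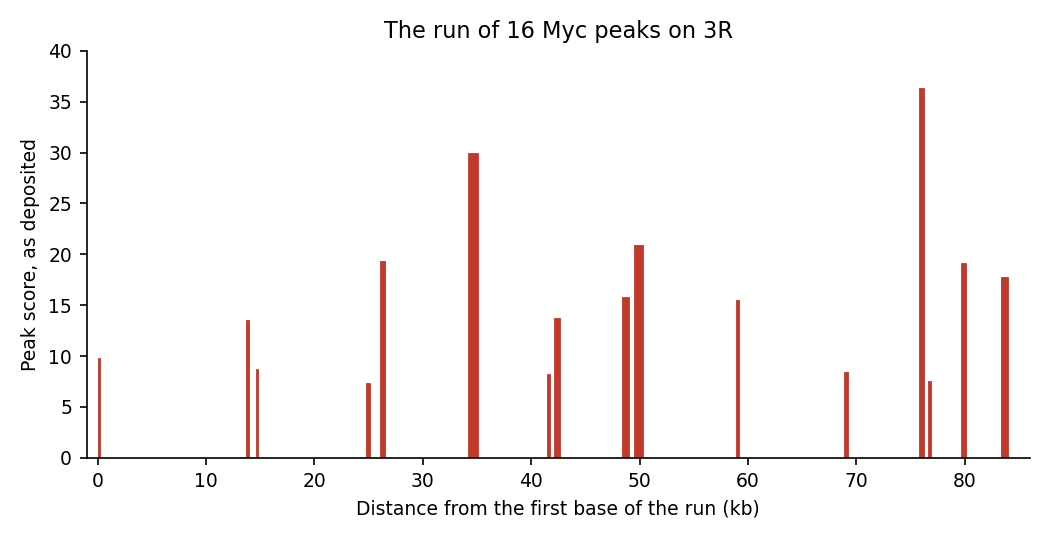
Peak score as deposited against distance from the first base of the run (kb) for the 16 peaks between bases 25548926 and 25632940 on 3R, with each bar as wide as its peak. The highest bar, 36.33, stands in the last part of the run and the widest, 940 bp, in the middle.

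The longest runs of the other arms differed in form. That of 2L held 39 peaks in 122929 bp, that of 2R 11 in 51525 bp, that of 3L 9 in 28706 bp and that of X 8 in 17185 bp. The 3R run was thus second in number and in length among the 5, with fewer peaks per length than the others, at 1.90 peaks per 10 kb. Its members were not evenly spaced, with neighbouring midpoints from 716 to 13733 bp apart and a median of 6361 bp.

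Both runs of 6 peaks on 3R were much shorter. The run from base 19151724 to base 19162602 held 6 peaks in 10879 bp, and peaks covered 29.6% of it. Its highest peak was the fourth of the arm, with a score of 30.95, while the run's median score was 11.9. The run from base 5908765 to base 5936016 held 6 peaks in 27252 bp with a median score of 10.5, and its highest peak, at bases 5926159 to 5926638, scored 17.95.

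Pairs of neighbouring peaks about 7 kb apart recurred along 3R. Of the 284 distances between neighbouring midpoints, 11 lay from 6900 to 7100 bp, with a median of 6950 bp and a range of 6923 to 7070 bp. The windows of the same size just below and just above held 2 and 0 distances. Over 70 windows of 200 bp between 900 and 14900 bp the median count on 3R was 1, and the highest count in any other window was 6. The same window held 6 distances for 2L, 3 for 2R, 4 for 3L and 1 for X. On each of these arms another window held as many or more, up to 7 for 2L, 4 for 2R, 4 for 3L and 4 for X. As shares of the distances, the window from 6900 to 7100 bp held 3.87% for 3R, against 3.49% for 2L, 1.35% for 2R, 2.15% for 3L and 0.909% for X. This window was chosen after the distances had been seen, and no test was made of it.

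**Figure D4:**
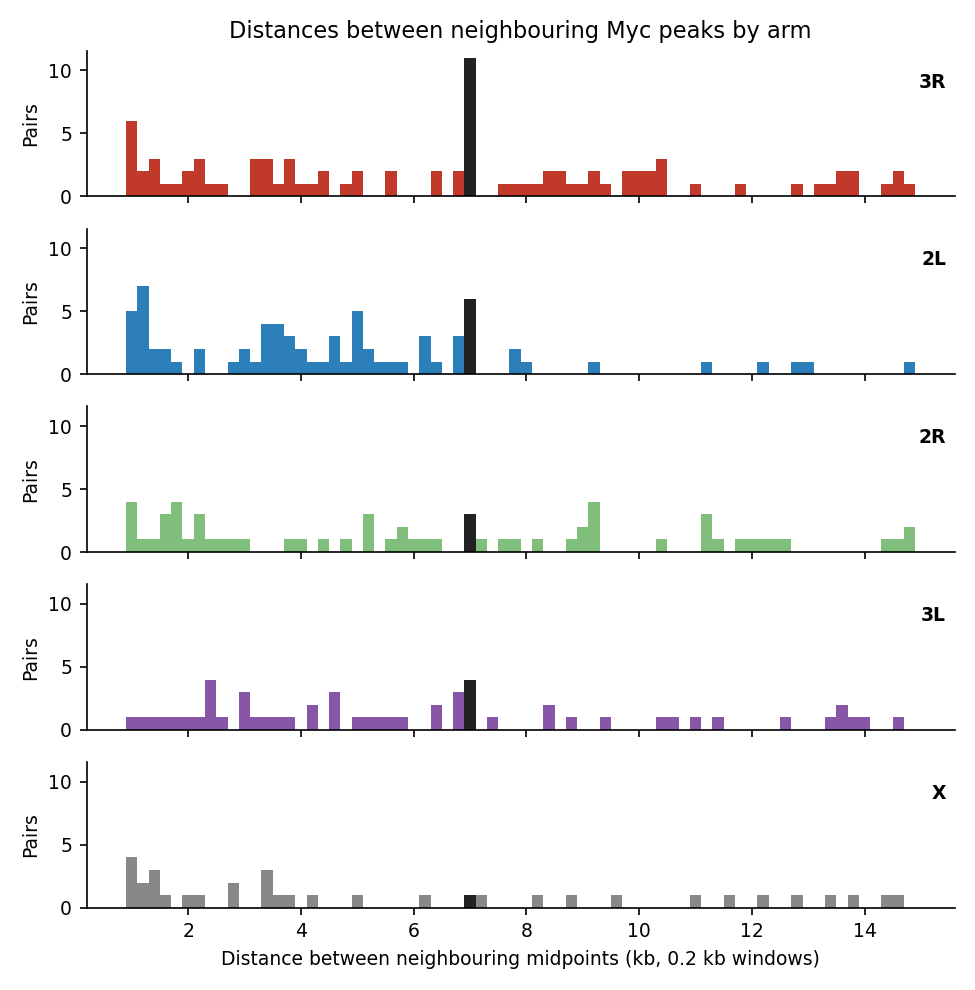
Number of neighbouring peak pairs by the distance between their midpoints, in windows of 200 bp up to 14.9 kb, with 1 panel for each arm, 3R on top. The window from 6900 to 7100 bp is drawn in black and holds 11 pairs on 3R, 6 for 2L, 3 for 2R, 4 for 3L and 1 for X.

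Of these 11 pairs on 3R, 5 had no other peak within 15000 bp, and the other 6 lay in longer runs. The 10 peaks of the 5 lone pairs scored 14.03 to 26.86 with a median of 18.5 and had a median width of 320 bp. The median score was 12.3 for the 76 other peaks of 2-peak runs on the arm. One pair comprised the peaks at bases 11444562 to 11444830 (score 24.20) and 11451520 to 11451919 (26.86). Another comprised bases 13401170 to 13401611 (23.63) and 13408178 to 13408491 (17.88). One more comprised bases 26505365 to 26505689 (26.10) and 26512249 to 26512687 (14.03).

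The other two such pairs were at bases 15531371 to 15531622 (14.33) with 15538360 to 15538613 (17.69), and at bases 27823840 to 27824144 (17.55) with 27830772 to 27831166 (19.20). On the other arms 11 pairs of this spacing stood equally alone, and their 22 peaks scored 12.16 to 34.25 with a median of 19.97 and a median width of 344 bp. The score ranges of these lone pairs on 3R and on the other arms overlapped. Scores were more mixed in the 6 pairs of 3R inside longer runs. They were 7.86 with 13.15, 19.67 with 12.58, 8.15 with 9.23, 29.94 with 8.27, 8.42 with 36.33 and 14.41 with 8.19. No sequence was compared, and whether repeats underlie these pairs was not tested.

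Exact score values recurred among the peaks of 3R and of the whole list. In the whole list 19 score values, from 7.52 to 14.85, were each shared by 10 or more peaks. On 3R 97 peaks, or 34.0% (28.6 to 39.9%), had one of these values. The share was 23.7% on 2L (17.6 to 30.7%), 34.1% on 2R (27.9 to 40.7%), 21.4% on 3L and 30.6% on X (22.2 to 40.1%). The interval of 3R overlapped those of 2L, 2R and X and lay above that of 3L, so a share of this size was not particular to 3R. The peaks of 3R themselves helped to choose the values, which raises the share of 3R. Peaks of the other arms helped to choose them as well, and no test was made of these shares. When the values were chosen from peaks outside 3R alone, 8 of them were shared by 10 or more peaks, and 48 peaks of 3R (16.8%, 12.7 to 21.7%) had one.

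With all 19 values, 31.1% of peaks in the distal 13.9 Mb had a recurring score (24.9 to 37.9%). In the proximal 13.9 Mb 42.1% did (30.9 to 54.0%), and these intervals overlap. Shares of peaks with a recurring score lay further apart across a boundary at 18 Mb, chosen after the values had been seen. From 18 to 28 Mb 41 of 175 peaks had one (23.4%, 17.4 to 30.4%), and from 0 to 18 Mb 56 of 110 did (50.9%, 41.2 to 60.6%). Among peaks scoring between 7.52 and 14.85, where such a value was possible, the shares were 35.7% of 115 peaks (26.9 to 45.1%) and 68.3% of 82 peaks (57.1 to 78.1%). Below 18 Mb the share was higher from 8 to 18 Mb, with 40 of 68 peaks (58.8%, 46.2 to 70.6%), than from 0 to 8 Mb, with 16 of 42 (38.1%, 23.6 to 54.4%), though these intervals overlap. The interval from 0 to 8 Mb also overlapped that from 18 to 28 Mb, and among peaks inside the score range its share was 55.2% of 29 (35.7 to 73.6%). With the 8 values chosen outside 3R, a choice made after seeing the data, the shares were 12.6% from 18 to 28 Mb (8.05 to 18.4%) and 23.6% from 0 to 18 Mb (16.1 to 32.7%), and these intervals overlap. Next to the boundary at 18 Mb, which was chosen after the values had been seen, the shares with all 19 values lay further apart. From 18 to 20 Mb 7 of 40 peaks had a recurring score (17.5%, 7.34 to 32.8%), and from 16 to 18 Mb 14 of 16 did (87.5%, 61.7 to 98.4%). With the 8 values these counts were 4 of 40 (2.79 to 23.7%) and 8 of 16 (24.7 to 75.3%). The longest series of consecutive peaks without one of the 19 values held 17 peaks and ran from base 18187797 to base 18512143, with 12 of the 17 inside the score range.

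The same boundary lay between a dense and a sparse part of the arm. From 18 Mb to the last peak the density was 17.7 peaks per Mb (15.1 to 20.5), and below 18 Mb it was 6.11 (5.02 to 7.37). Median scores were 11.9 in the dense part (11.1 to 12.7) and 11.5 in the sparse part (10.8 to 12.3), and their intervals overlapped. Over all of 3R, 51.9% of single peaks had one of the 19 values (41.9 to 61.8%). The share was 22.1% in pairs (13.9 to 32.3%) and 25.3% in runs of 3 or more (16.9 to 35.2%). Of the 175 peaks in the dense part 49 were single, and of the 110 in the sparse part 55 were. Among single peaks alone, the share was 38.8% in the dense part (25.2 to 53.8%) against 63.6% in the sparse part (49.6 to 76.2%), and these intervals overlap. How far the mix of single and grouped peaks enters the shares was not tested. The boundary at 18 Mb was chosen after the values had been seen, and no test was made of it. Number of copies of the arm, read depth and the caller's local background in these stretches are not known from the list, and their part in these shares was not tested.

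**Figure D5:**
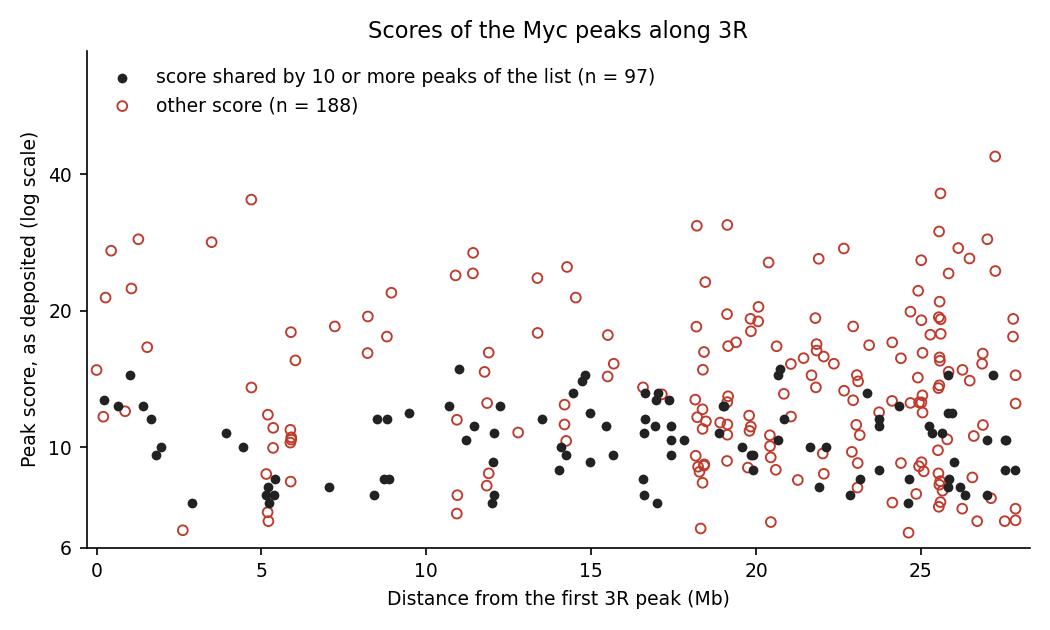
Score as deposited (log scale) of each of the 285 peaks against distance from the first 3R peak (Mb). Filled points are the 97 peaks whose score is shared by 10 or more peaks of the list and open points the other 188; filled points prevail just below 18 Mb and open ones just above it.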

How the data were processed

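ChIP-seq of S2-DRSC cells gave 2 libraries precipitated with an antibody against Myc and 1 input library. Per the submitters' processing notes, the tools were CASAVA (versions 1.7.0.2 and 1.7.0.3), BWA and MACS2, and the build was BDGP5. The deposited list gives 1 score per peak and no column for any library. Not given in the sources used here are the score's statistic, the peak threshold and the way libraries were combined. Read depth is unknown, and intervals cover counting error only.

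Peaks were taken by sequence name and counted with Python 3.11.15, pandas 2.3.3 and SciPy 1.17.1, with 1-based positions. Arm lengths were replaced by the distance from first to last peak. Densities were compared by two-sided exact binomial tests with Benjamini-Hochberg adjustment over 4 arms. Medians have order-statistic intervals and shares Clopper-Pearson intervals, at 95%. Procedures were tested on simulated data with independent counts and values, so the density test was not tried on grouped peaks. The arm, the tests, the 15000 bp joining distance and the rule for named peaks (the 20 highest, the 10 widest, the first and last peak, the longest run, the highest peak of every run of 5 or more, and the highest of each other arm) were chosen with earlier results of these data known. The alternatives changed the score minimum, merging, the joining distance, bin size, length and the longest run. No genome or annotation of release 5 was used, so genes, start sites and motifs were not analysed here.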

Additional observations from a re-analysis of the deposited data

How the results depend on the processing

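Of 46 alternatives to 12 results, 32 changed neither direction nor call, 2 lost the call, 2 changed direction and 10 moved a described value. Among peaks scoring at or above the list median the density ratio of 3R to 2L turned to 0.938 and also lost its call. In the same setting the ratio to 2R turned to 1.12, with no call before or after, and that to 3L fell to 1.18 without a call. Fewer peaks were tested there, 105 on 3R against 89 on 2L, 69 on 2R and 78 on 3L. With each run counted once the ratio to 3L was 1.23, also without a call. The ratio to 2L was 1.69 with each run counted once and 1.60 without the longest run of each arm, both with a call. The ratio to X kept its call in each of the 5 alternatives run. The median neighbour distance was 43784 bp with peaks merged within 1000 bp and 135805 bp among peaks at or above the list median. The share in runs was 12.6% at 5000 bp, 46.3% at 30000 bp, 20.4% with merged peaks and 9.52% among the higher peaks. The ratio of variance to mean was 10.2 in 2 Mb bins and 4.10 without the longest run. The distal share ran from 68.2 to 76.2% over its 5 alternatives. The share with recurring scores was 12.6% from 18 to 28 Mb and 23.6% from 0 to 18 Mb with values chosen outside 3R. This choice, leaving out the fullest bin and leaving out distances of 6900 to 7100 bp were chosen after seeing the data. No paired analysis was possible because peaks are not listed by replicate. Replicate spread, depth and arm lengths are unknown here.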

Other observations

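The densest stretch in the proximal part of 3R was made of low peaks. The bin from 5 to 6 Mb held 17 peaks with scores from 6.87 to 17.95 and a median of 8.73, against 11.52 for the arm. Its first 11 peaks, between bases 5167422 and 5456738, scored 6.87 to 11.80 with a median of 8.19, and 10 of these 11 were below the arm's median. The run of 6 that closed the bin had a median score of 10.5.

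The first and last peaks of the arm differed in setting. The first, at bases 32394 to 32677 with a score of 14.81, stood alone. The last, at bases 27903380 to 27903593 with a score of 12.49, closed a run of 4 peaks in 3147 bp from base 27900447. Their scores ran from 6.90 to 14.42. At 12.7 peaks per 10 kb this was the densest of the 10 runs of 4 or more peaks on 3R, and peaks covered 36.4% of it, against 7.85 to 29.6% of the other 9.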
